A study of Mus musculus with 3 samples.

Results

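The Fc gamma receptor genes of the mouse were examined in RNA bound to chromatin of bone-marrow-derived macrophages. They were chosen by symbol and comprise Fcgr1, Fcgr2b, Fcgr3, Fcgr4 and Fcer1g, which are 5 of the 55536 gene IDs in the tables and 5 of the 22028 protein-coding ones. The 3 libraries belong to 1 group. The macrophages were primary cells of strain C57BL/6J that received Lipid A (the TLR4-activating part of bacterial lipopolysaccharide) at 100 ng/ml for 12 h. Lipid A was then removed for 12 h, and the cells were taken at minute 0 of a second Lipid A exposure. No unexposed group was analysed here, so the values are levels in this state and show no response to Lipid A. The replicates are called biological in the labels but carry 1 donor identifier, and separate animals are not stated, so any p-value measures only the spread between these libraries.

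Fc gamma receptors bind the constant part of IgG and link antibody-coated particles to phagocytosis and cytokine release. In the mouse, the receptors encoded by Fcgr1, Fcgr3 and Fcgr4 bind the ligand but signal through the common gamma chain, encoded by Fcer1g, which carries an activating motif (ITAM) that is phosphorylated by Src-family kinases and recruits the kinase Syk. The receptor encoded by Fcgr2b carries an inhibitory motif (ITIM) instead and recruits phosphatases such as SHIP1. Chromatin-bound RNA holds transcripts still being made or spliced, so its levels need not match those of mature mRNA or surface protein.

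Fcgr1, the high-affinity IgG receptor gene, lies at chr3:96282909-96293969 on the minus strand (mm10). The other 4 genes lie on chromosome 1. Fcgr2b occupies chr1:170958617-170976547, Fcgr3 chr1:171051174-171064935 and Fcer1g chr1:171229572-171234365, all on the minus strand, and Fcgr4 occupies chr1:171018920-171029761 on the plus strand between Fcgr2b and Fcgr3.

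Fcgr2b and Fcgr3 are near-identical over part of their length, which bears on how reads were divided between them. Exon 4 of the first isoform of Fcgr2b (chr1:170966446-170966700) and exon 4 of the first isoform of Fcgr3 (chr1:171053939-171054193), which code for part of the extracellular region, are shown 5′ to 3′ from the GENCODE M21 transcripts, with the differing bases in capitals:
Fcgr2b exon 4: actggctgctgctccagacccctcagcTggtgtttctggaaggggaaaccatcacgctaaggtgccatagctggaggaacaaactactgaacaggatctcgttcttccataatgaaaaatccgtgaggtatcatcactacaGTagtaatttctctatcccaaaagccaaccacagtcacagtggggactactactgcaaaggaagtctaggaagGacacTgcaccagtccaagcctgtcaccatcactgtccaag
Fcgr3 exon 4: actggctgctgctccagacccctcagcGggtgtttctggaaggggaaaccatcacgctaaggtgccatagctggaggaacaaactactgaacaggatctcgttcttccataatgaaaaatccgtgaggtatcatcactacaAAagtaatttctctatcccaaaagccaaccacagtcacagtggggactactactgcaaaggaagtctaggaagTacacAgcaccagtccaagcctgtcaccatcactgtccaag
The exons have 255 bases each, of which 250 are the same (98.0% identity), with an identical run of up to 113 bases. The fourth exon of Fcgr4 (chr1:171025544-171025798) also has 255 bases but shares only 142 of them (55.7%) with that of Fcgr2b, in runs of at most 8. Counted as 31-base words, Fcgr3-201 shares 233 of its 1317 with Fcgr2b, whereas Fcgr1 and Fcer1g share none with any other gene. Fcgr4 shares 16 of 1226 with other genes. The levels of Fcgr3 and Fcgr2b therefore depend on how the authors' quantification divided reads from this stretch, and the Fcgr3 value, the lower of the pair, is uncertain.

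The 250 bases upstream of a transcription start, from the RefSeq table on GRCm38.p6, were searched on both strands for 4 sequence patterns. The windows of Fcgr1 (chr3:96293970-96294219, minus strand) and Fcgr4 (chr1:171018676-171018925, plus strand) are shown because they alone among the members held an interferon-type pattern, with the matches in capitals:
Fcgr1 upstream: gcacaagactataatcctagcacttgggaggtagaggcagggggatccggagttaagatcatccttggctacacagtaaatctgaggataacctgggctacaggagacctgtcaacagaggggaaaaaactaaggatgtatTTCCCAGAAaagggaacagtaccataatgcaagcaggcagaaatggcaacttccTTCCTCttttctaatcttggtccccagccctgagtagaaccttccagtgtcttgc
Fcgr4 upstream: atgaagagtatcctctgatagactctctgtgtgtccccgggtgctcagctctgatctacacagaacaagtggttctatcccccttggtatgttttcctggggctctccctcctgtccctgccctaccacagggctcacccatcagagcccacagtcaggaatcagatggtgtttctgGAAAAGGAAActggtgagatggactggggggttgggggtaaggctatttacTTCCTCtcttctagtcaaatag
The Fcgr1 window held a GAS pattern (TTCNNNGAA, the interferon gamma activated site) as TTCCCAGAA at position -109 from the start, and GAS matches occurred in 7.02% of 32851 windows. The Fcgr4 window held an ISRE core (GAAA, NN and GAAA in a row, from the interferon-stimulated response element) as GAAAAGGAAA at -73, a pattern found in 2.98% of windows. A PU.1 core (GAGGAA, on the minus strand as TTCCTC) stood at -55 in Fcgr1, at -22 in Fcgr4 and at -6 or -15 in the pair of Fcgr3 windows, against 23.3% of all windows. The Fcgr2b and Fcer1g windows held none of these 3 patterns, and none of the members held the TATA box letters TATAAA, which were present in 12.4% of windows. None of the matches in these windows overlapped another. They are descriptions of sequence and do not show binding.

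Before the levels, the libraries were checked against cell type markers. Expected counts summed to between 11958978 and 19475027 per library. All 7 macrophage markers reached 1 TPM in each library, where 46.1% of protein-coding genes did. TPM is a transcript level scaled to length and to a fixed sum per library. The summed level of the macrophage markers was 628, 798 and 652 TPM in replicates 1, 2 and 3. Markers of other cells that carry Fc receptors were near 0 in the alignment-based quantification. The sums were 0.16 to 1.21 TPM over 7 B cell genes and 0.03 to 0.07 TPM over 6 NK cell genes. They were 0.71 to 1.71 TPM over 7 neutrophil genes and 0.28 to 1.45 TPM over 7 mast cell and basophil genes. Over 6 dendritic cell genes the sum was 2.49 to 3.26 TPM, and 1 of them, Zbtb46, was above 1 TPM in every library. These sums were higher in the read-based quantification, described below. There B cell genes summed to 3.63 to 5.08 TPM and neutrophil genes to 3.42 to 4.23 TPM. Dendritic cell genes summed to 8.05 to 8.95 TPM, and 3 of them reached 1 TPM in every library. Over 6 T cell genes the sum was 0.11 to 0.91 TPM alignment-based and 13.0 to 17.3 TPM read-based, where Cd3d averaged 11.4 TPM. Replicate 3 stood apart, because 9 fibroblast and stromal genes summed to 665 TPM there, against 0.1 and 2.07 TPM in replicates 1 and 2. In such bulk samples fewer cells of a type and less RNA per cell cannot be told apart. Member levels, differences between neighbouring members, the Fcgr2b-205 share and dispersion calls are therefore also given without replicate 3. The other results include that library.

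The inhibitory receptor gene Fcgr2b was the highest of the 5 genes on chromatin. Its alignment-based level was 291.8, 277.4 and 194.6 TPM in replicates 1, 2 and 3, or 255 ± 52.5 TPM (SD, n = 3), and 285 TPM without replicate 3. Of all protein-coding genes, 131 were higher, which put Fcgr2b at percentile 99.4. These values rested on 4741, 4690 and 4268 expected counts.

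Fcer1g, the gene of the shared signalling chain, followed at 127.5, 98.25 and 86.96 TPM, a mean of 104 ± 20.9 TPM (n = 3), and 113 TPM without replicate 3. It stood at percentile 97.6 of protein-coding genes. Fcgr1 had 53.69, 57.18 and 41.38 TPM (50.8 ± 8.3 TPM, percentile 93.2), and 55.4 TPM without replicate 3. Replicate 3 was the lowest library for each of these 3 genes.

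Both low-level activating receptor genes stood near the same value. Fcgr4, whose receptor binds the IgG2a and IgG2b subclasses in mice, had 12.02, 8.71 and 5.82 TPM in replicates 1, 2 and 3 (8.85 ± 3.1 TPM). Fcgr3, a low-affinity receptor gene, had 8.39, 6.33 and 11.12 TPM (8.61 ± 2.4 TPM). Their counts were small, at 148, 121 and 101 for Fcgr4 and 108, 95 and 200 for Fcgr3. The authors' deposited TPM intervals, whose level is not stated in the sources used here, were 9.28 to 12.8 for Fcgr4 and 6.57 to 9.63 for Fcgr3 in replicate 1 and overlapped. In replicate 3 they were 4.42 to 6.54 for Fcgr4 and 9.15 to 12.3 for Fcgr3 and did not overlap. Such intervals need not hold the deposited TPM. Those of Fcgr2b, at 257 to 278, 245 to 266 and 174 to 190 in replicates 1, 2 and 3, lay below its TPM. Without replicate 3 the means were 10.4 TPM for Fcgr4 and 7.36 TPM for Fcgr3. All 5 members reached 1 TPM in every library, where 46.1% of protein-coding genes did, and 3 of 5 reached 10 TPM in every library, where 24.3% did.

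**Figure D1:**
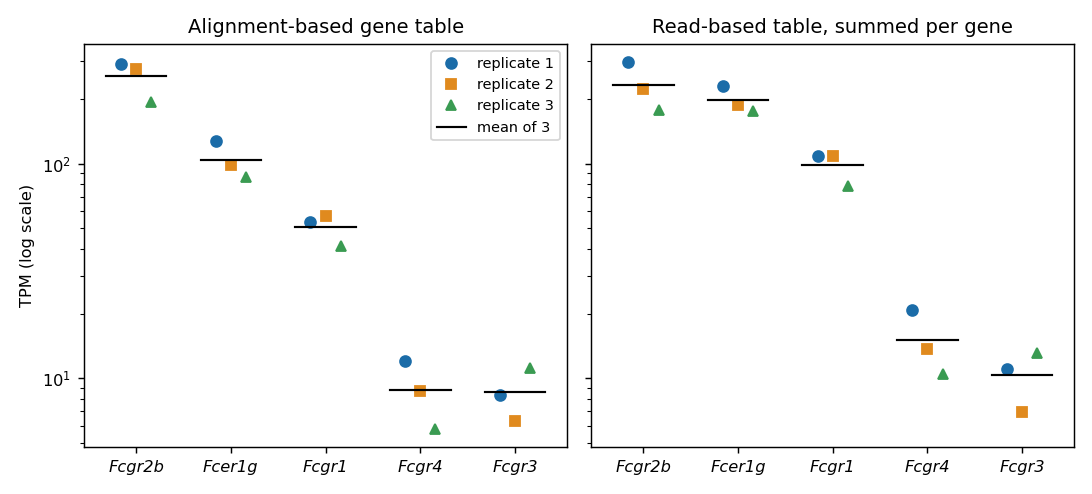
Level of each Fc gamma receptor gene in TPM (log axis) in each of 3 libraries, from the alignment-based gene table on the left and the read-based table on the right; black lines are means of 3. Fcgr2b was highest on average in both panels, at 255 and 232 TPM, and the Fcgr4 and Fcgr3 points overlapped in both.

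The order of neighbouring members was examined on the log2(TPM + 1) scale, where 3 libraries allow no p below 0.25. Fcgr2b exceeded Fcer1g by 1.28 (SD 0.18, n = 3) and in 3 of 3 libraries. Fcer1g exceeded Fcgr1 by 1.02 (SD 0.23), and Fcgr1 exceeded Fcgr4 by 2.43 (SD 0.31), also in 3 of 3 libraries each. Without replicate 3 these differences were 1.34, 1.00 and 2.33. Each of these 3 differences gave p = 0.25 in the exact two-sided sign-flip permutation test, the smallest value possible. Members were ordered by the mean TPM of these same libraries, so the p-values are no independent support for the order. Fcgr4 minus Fcgr3 was 0.47, 0.41 and -0.83 in replicates 1, 2 and 3, a mean of 0.02 (SD 0.73, exact permutation p = 1), so these neighbours did not differ beyond their spread. Their difference was 0.44 without replicate 3, and it was negative without replicate 1 or 2.

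The read-based quantification, which assigns reads to transcripts without the deposited alignment, kept Fcgr2b first on average but narrowed its lead. There Fcgr2b averaged 232 TPM, Fcer1g 198 TPM, Fcgr1 98.3 TPM, Fcgr4 15.0 TPM and Fcgr3 10.4 TPM. Fcgr2b minus Fcer1g was only 0.21 on the log2(TPM + 1) scale. In replicate 3 the pair were 177.0 and 176.6 TPM. Relative to the alignment-based value, the read-based mean was 1.94 times as high for Fcgr1, 1.9 times for Fcer1g, 1.69 times for Fcgr4, 1.2 times for Fcgr3 and 0.912 times for Fcgr2b. The median of this ratio over 10084 protein-coding genes was 1.32.

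Transcripts of the gamma chain exceeded the sum of those of the 3 Fc gamma receptors that pair with it. The sum of Fcgr1, Fcgr3 and Fcgr4 was 74.1, 72.2 and 58.3 TPM in replicates 1, 2 and 3, and Fcer1g was 1.72, 1.36 and 1.49 times that sum. Read-based ratios were 1.64, 1.46 and 1.73. Fcgr2b was 3.94, 3.84 and 3.34 times the same sum in the alignment-based table and 2.12, 1.73 and 1.73 times in the read-based table. The sum leaves out other receptors that pair with the gamma chain, so an excess over all its partners is not shown. Clec4e, the gene of 1 such receptor, was at 40.9, 31.9 and 80.0 TPM in replicates 1, 2 and 3.

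Most of the Fcgr2b signal lay in isoforms annotated as non-coding. The 5 genes have 17 annotated isoforms, of which Fcgr2b has 7. Fcgr2b-205, a retained-intron isoform with 1369 bases of intron of the first isoform, held 43.6%, 38.6% and 38.1% of the gene's TPM in replicates 1, 2 and 3 (40.1 ± 3.1%, n = 3). Fcgr2b-206, a processed transcript at the 3′ end with 397 intron bases, held 33.6 ± 2.3%, and Fcgr2b-207, a short retained-intron isoform at the 5′ end with 214 intron bases, held 13.5 ± 2.3%. Read-based shares were 36.2% for Fcgr2b-205, 28.6% for Fcgr2b-206 and 22.9% for Fcgr2b-207. As shares of expected counts, which give long isoforms more weight, they were 62.7% for Fcgr2b-205, 14.7% for Fcgr2b-206 and 2.3% for Fcgr2b-207. Together these 3 isoforms held 86.5%, 89.4% and 85.9% of the gene's TPM, and 87.7 ± 1.4% in the read-based table. The 4 protein-coding isoforms held 12.8 ± 1.8%, or 39.2, 29.5 and 27.6 TPM in replicates 1, 2 and 3. Without replicate 3, Fcgr2b-205 held 41.1%.

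**Figure D2:**
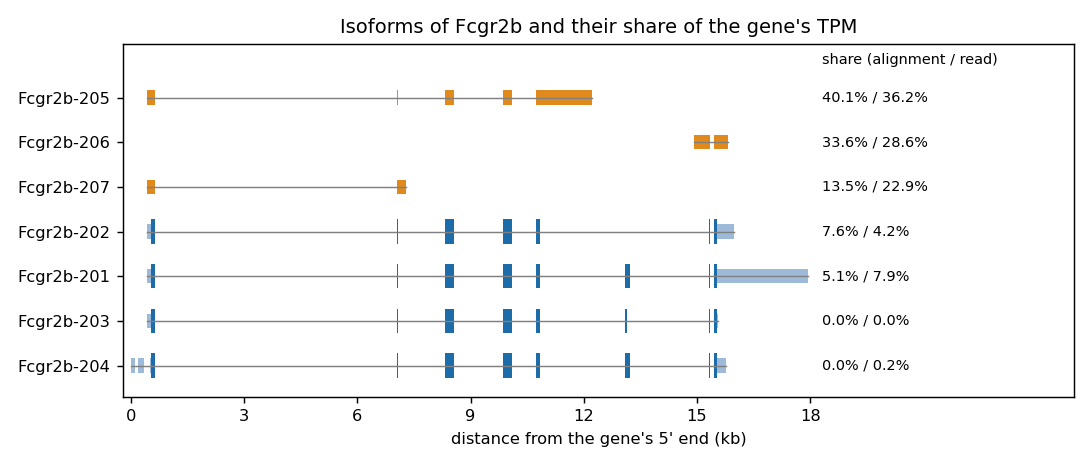
The 7 annotated isoforms of Fcgr2b by distance from the gene's 5′ end in kb, with exons as boxes (tall dark blue, coding; light blue, non-coding part of a coding isoform; orange, isoforms with intron bases of the first isoform) and, at the right, each isoform's mean share of the gene's TPM in both quantifications. The 3 orange isoforms held 87.3% of TPM in the alignment-based table and 87.7% in the read-based table.

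The coding isoforms of Fcgr2b differ by an exon of 141 bases, exon 6 of Fcgr2b-201 (chr1:170963325-170963465), in the part that codes for the cytoplasmic tail. It is shown because it separates the forms known in the mouse as b1, with the exon and typical of B cells, and b2, without it and typical of myeloid cells:
Fcgr2b exon 6: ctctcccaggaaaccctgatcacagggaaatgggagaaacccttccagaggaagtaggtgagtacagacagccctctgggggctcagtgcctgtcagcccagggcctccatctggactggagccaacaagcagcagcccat
Fcgr2b-201, with the exon, had 15.2, 12.4 and 10.9 TPM in replicates 1, 2 and 3, against 24.0, 17.1 and 16.6 TPM for Fcgr2b-202, without it. The form without the exon was higher in 3 of 3 libraries. The read-based table gave the other order, with 22.2, 16.8 and 15.5 TPM for Fcgr2b-201 and 16.5, 5.70 and 7.74 TPM for Fcgr2b-202. The balance of the forms is therefore not settled by these tables. Fcgr2b-201 has 3544 bases and Fcgr2b-202 has 1462, and 529 of the 31-base words of Fcgr2b-201 also occur in other genes, against 233 for Fcgr2b-202.

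A large retained-intron share was common in these libraries. The retained-intron isoforms of Fcgr2b held 53.6% of its TPM. It was compared with the 3985 protein-coding genes that reached 10 TPM in every library and have such an isoform. Of those genes, 49.6% had a share of 50% or more. The Fcgr2b share stood at percentile 56.8 of those genes, whose median was 49.8%. The 87.3% held by the 3 non-coding Fcgr2b isoforms was not compared with other genes. In the read-based table the share of Fcgr2b was 59.1%, where 45.5% of those genes reached 50%. Fcer1g, with 23.2 ± 1.8%, stood at percentile 12.8. Its first coding isoform, Fcer1g-201, held 62.4 ± 4.9%, and Fcer1g-203, a coding isoform with 74 bases of intron of the first, held 14.4 ± 4.9%. In the read-based table the order of this pair was turned, at 28.6 ± 6.5% for Fcer1g-201 and 42.4 ± 5.2% for Fcer1g-203.

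Fcgr1 and Fcgr3 also depended on the quantification. Fcgr1-201, its coding isoform, held 97.1 ± 2.5% of the alignment-based TPM but 51.8 ± 2.5% of the read-based TPM, the rest being Fcgr1-202, annotated as subject to nonsense-mediated decay. Of the read-based counts, Fcgr1-201 held 86.7% and Fcgr1-202, with 600 bases against 2589, held 13.3%. The level of Fcgr1-201 itself differed little, at 53.7, 54.9 and 39.5 TPM alignment-based and 58.8, 53.4 and 40.6 TPM read-based. For Fcgr3, the retained-intron isoform Fcgr3-203 held 88.9% in replicate 1, 16.7% in replicate 2 and 29.3% in replicate 3, from 96, 15 and 59 counts. Its read-based share was also highest in replicate 1, at 49.9%, against 27.5% in replicate 2 and 31.2% in replicate 3. Without replicate 1 the mean alignment-based share was 23.0%, against 45.0% with it. Fcgr4 has 1 annotated isoform.

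**Figure D3:**
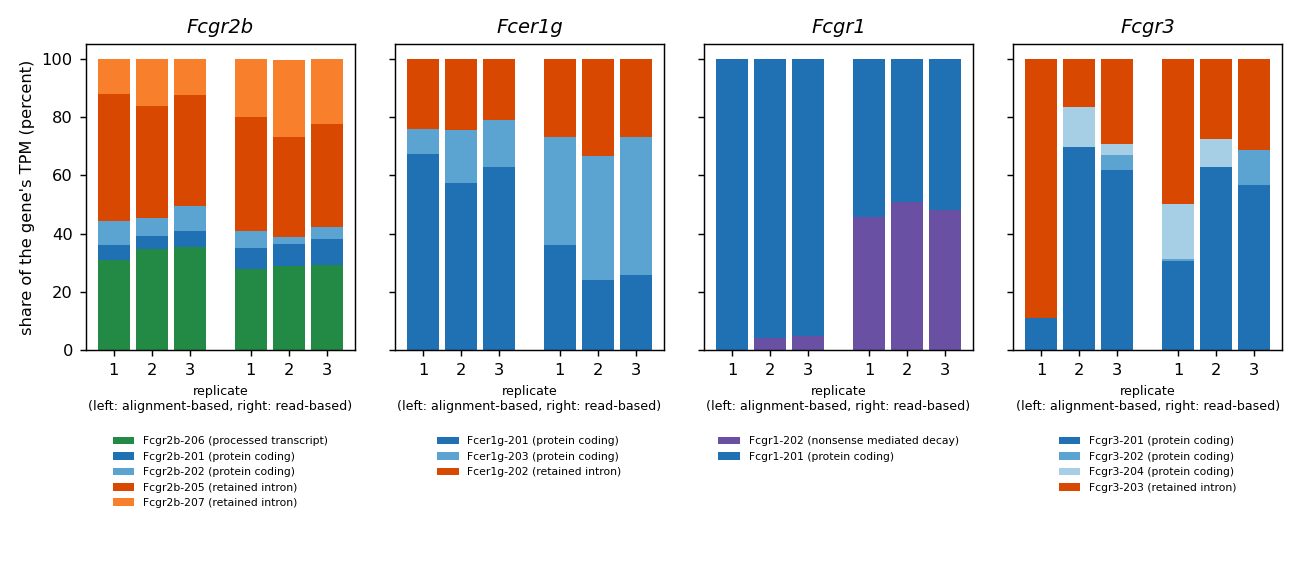
Share of each gene's TPM (percent) held by its isoforms in replicates 1, 2 and 3, alignment-based in the left 3 bars and read-based in the right 3 of each panel; isoforms under 1% in all bars are left out. The summed share of the 3 non-coding Fcgr2b isoforms was 87.3% alignment-based and 87.7% read-based, whereas Fcgr1-201 held 97.1% in one and 51.8% in the other.

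When only coding isoforms were counted, Fcgr2b no longer led. Fcer1g was then highest at 79.9 ± 15.0 TPM, followed by Fcgr1 at 49.4 ± 8.6 TPM and Fcgr2b at 32.1 ± 6.25 TPM. Fcgr4 had 8.85 ± 3.1 TPM and Fcgr3 4.69 ± 3.5 TPM. The read-based order was the same, at 141, 50.9, 28.7, 15.0 and 6.53 TPM for Fcer1g, Fcgr1, Fcgr2b, Fcgr4 and Fcgr3. In the alignment-based table Fcgr1 and Fcgr2b were separated narrowly across libraries, the lowest Fcgr1 value being 39.5 TPM in replicate 3 and the highest Fcgr2b value 39.2 TPM in replicate 1. Annotated isoforms with intron bases of the first numbered 3 for Fcgr2b, 2 for Fcer1g, 1 for Fcgr3 and 0 for Fcgr1 and Fcgr4. The coding sum of Fcer1g includes Fcer1g-203, which has 74 such bases. The order by whole gene and the order by coding isoforms therefore both depend on which isoforms are annotated.

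The libraries were then compared after TMM scaling of read counts per library total (CPM), which adjusts for library composition. Fcgr2b was at 396.4, 287.8 and 213.9 CPM in replicates 1, 2 and 3, Fcgr1 at 125.7, 110.8 and 80.34 CPM, Fcer1g at 49.17, 28.41 and 27.21 CPM, and Fcgr4 at 12.38, 7.425 and 5.062 CPM. Each of these 4 genes was highest in replicate 1 and lowest in replicate 3, as were 16.8% of the 14839 genes tested. In deposited TPM, Fcgr1 was instead highest in replicate 2, and without TMM scaling the log2 ratio of Fcer1g in replicate 2 over replicate 3 was -0.05. Fcgr3 did not follow, at 9.031, 5.83 and 10.02 CPM. The log2 ratio of replicate 1 over replicate 3 was 1.27 for Fcgr4, 0.89 for Fcgr2b, 0.85 for Fcer1g, 0.64 for Fcgr1 and -0.15 for Fcgr3, where the middle 90% of genes lay between -0.99 and 0.68. Fcgr4, Fcgr2b and Fcer1g thus lay above that range, at percentiles 99.2, 97.5 and 97. Per the labels, replicate 1 began with 1 µg of RNA, replicate 2 with 250 ng and replicate 3 with 500 ng, and the stromal genes were high in replicate 3. Their part in these ratios was not tested.

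Dispersion was tested with edgeR's quasi-likelihood fit over all 14839 genes. No gene was more variable than the trend after Benjamini-Hochberg adjustment (0 genes, 0%), and 747 genes (5.03%) had an unadjusted p under 0.05. Fcer1g and Fcgr2b were among those 747, with an adjusted p of 0.92 for Fcer1g and 0.96 for Fcgr2b in edgeR's quasi-likelihood test. The adjusted p of Fcgr1, Fcgr3 and Fcgr4 was 0.99 each in the same edgeR test. Without replicate 3, 73 genes were called, none of them a member. DESeq2 marked 155 genes as dispersion outliers and none of the 5 members. With a filter of a mean of at least 50 counts, edgeR called 0 of 11872 genes. That filter kept the stromal gene Col1a1, which had 1, 34 and 14624 counts in replicates 1, 2 and 3. With 3 libraries, a gene without a call was therefore not shown to be stable, and this holds for the 5 members too.

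**Figure D4:**
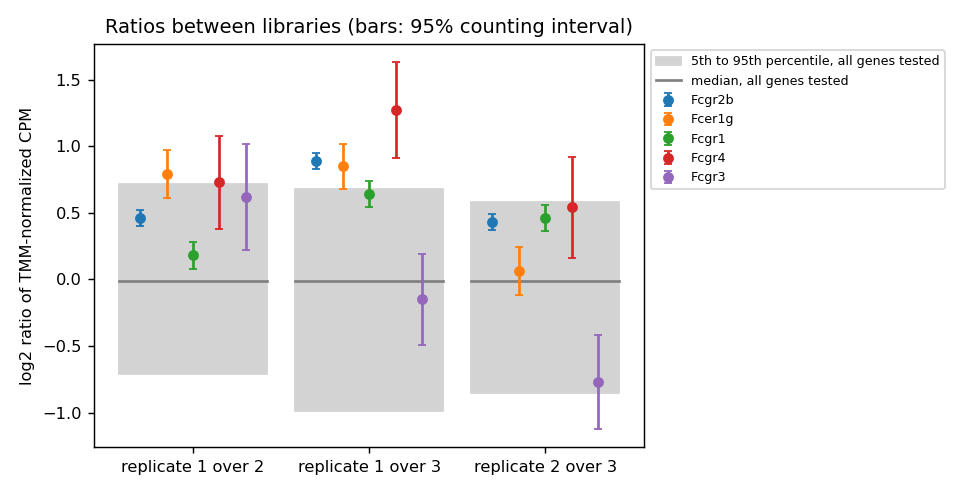
Log2 ratios of TMM-normalized CPM between pairs of libraries for the 5 genes, with 95% counting intervals; grey boxes span the middle 90% of all 14839 genes tested and grey lines their median. For replicate 1 over replicate 3, Fcgr4, Fcgr2b and Fcer1g lay above the box, at 1.27, 0.89 and 0.85, and Fcgr3 lay inside it at -0.15.

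Nearest in level over the 3 libraries, by Euclidean distance of log2(TPM + 1), was Ehd4 for Fcgr1 (0.06), followed by Clec4a3 (0.07) and Heatr5a (0.10). For Fcgr2b the nearest were Nfxl1 (0.10), Rufy3 (0.22) and Cd180 (0.22). For Fcer1g they were H2-T24 (0.08), Daxx (0.11) and Il15ra (0.12), for Fcgr4 Gm20517 (0.19), Sco1 (0.23) and Gmppb (0.26), and for Fcgr3 Polr2m (0.11), Smim15 (0.15) and Abhd15 (0.17). Likeness over 3 libraries of 1 group is a weak description, and 319 genes lay within 0.5 of Fcgr1.

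Genes of the activating arm downstream of the gamma chain were present almost throughout. Of 18 genes, 17 reached 10 TPM in every library, where 24.3% of protein-coding genes did. The highest were Prkcd, a protein kinase C gene, at 400 ± 10.9 TPM, Syk, the kinase recruited to the ITAM, at 283 ± 14.8 TPM, and Lat2, an adaptor gene, at 247 ± 19.8 TPM. The lowest was Fgr, a Src-family kinase gene, at 0.723 ± 0.484 TPM. Syk was at 291, 292 and 266 TPM in replicates 1, 2 and 3, a narrower relative spread than that of Fcgr2b.

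Of 10 genes of the inhibitory arm, 10 reached 1 TPM and 8 reached 10 TPM in every library. Among all protein-coding genes, 46.1% and 24.3% did. Inpp5d, which encodes SHIP1, the lipid phosphatase recruited by the Fcgr2b product, was highest at 183, 257 and 159 TPM in replicates 1, 2 and 3 (200 ± 51.2 TPM). Ptpn6, a tyrosine phosphatase gene, was at 118 ± 7.92 TPM, Csk, a kinase that restrains Src-family kinases, at 98.1 ± 17.8 TPM, and Ptpn11, another tyrosine phosphatase gene, was lowest at 7.18 ± 1.77 TPM.

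Among 9 other ITAM adaptors and receptors that pair with such adaptors, 4 reached 10 TPM in every library, where 24.3% of protein-coding genes did. Clec4e, a receptor gene whose product pairs with the gamma chain, was at 40.9, 31.9 and 80.0 TPM in replicates 1, 2 and 3, and Clec4d at 28.5, 26.8 and 49.9 TPM. Tyrobp, which encodes the adaptor DAP12, was at 28.2, 27.4 and 36.1 TPM, and Gp6, a platelet collagen receptor gene, was lowest at 0.02 TPM. Of the 6 list genes that reached 1 TPM in every library, 4 were highest in replicate 3 (Clec4e, Clec4d, Clec4n and Tyrobp), as Fcgr3 was, where 39.9% of the protein-coding genes at that level were. The stromal genes were also high in replicate 3, and their part in this was not tested.

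Of 14 other Fc receptor genes, 6 reached 1 TPM in every library, a share near the 46.1% of protein-coding genes that did. Of the 14, 1 reached 10 TPM in every library, where 24.3% of protein-coding genes did, namely Trim21, the cytosolic antibody receptor gene, at 76.1 ± 6.85 TPM. Fcgrt, the neonatal Fc receptor gene, was at 5.63, 12.8 and 9.31 TPM, and Fcrls at 2.06, 2.26 and 8.79 TPM in replicates 1, 2 and 3. Fcer1a and Ms4a2, whose products form the IgE receptor of mast cells with the gamma chain, were listed at 0 in every library of the alignment-based table, as were Fcmr, Fcamr and Pigr.

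Of 5 transcription factor genes chosen for these promoters, 5 reached 1 TPM and 3 reached 10 TPM in every library. Among all protein-coding genes, 46.1% and 24.3% did. The interferon regulatory factor genes Irf1 and Irf8 were at 141 ± 11.6 and 106 ± 34.4 TPM, Spi1, which encodes PU.1, at 61.6 ± 6.67 TPM, and Cebpa, a myeloid factor gene, was lowest at 5.44 ± 1.91 TPM.

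**Figure D5:**
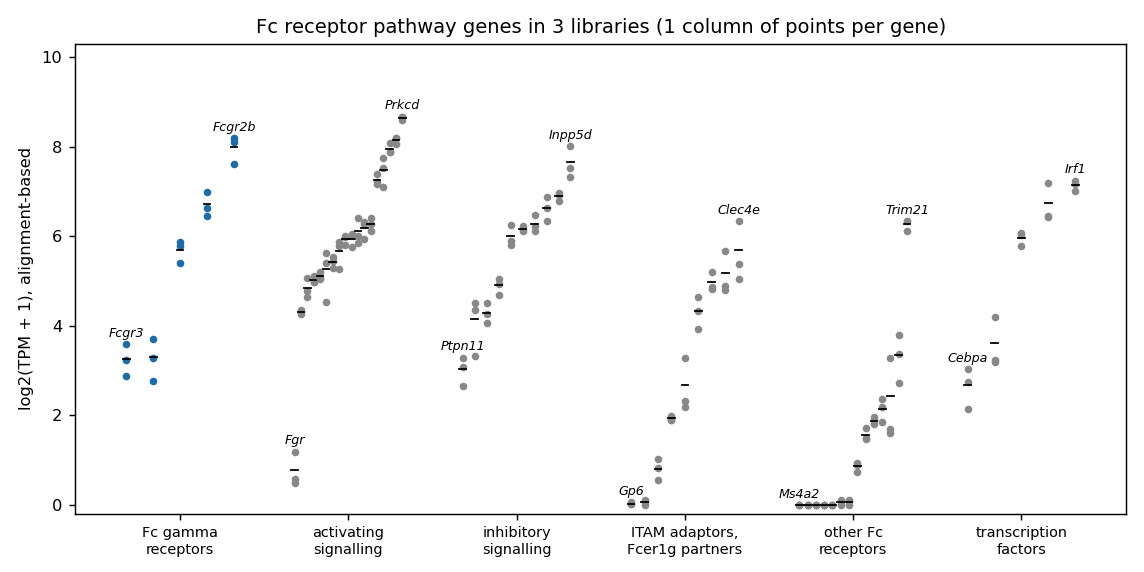
Level of each gene on the log2(TPM + 1) scale, with 1 column of 3 points (libraries) per gene and a black line at log2 of the mean TPM + 1, for the 5 Fc gamma receptor genes (blue) and the pathway lists (grey); the highest and lowest gene of each list are named. Fcgr2b stood among the high signalling genes, and 5 of the 14 other Fc receptor genes were at 0.

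At the loci themselves, annotated neighbours added little to the alignment-based counts. Gm38204, an antisense gene that overlaps the 5′ end of Fcgr2b, was at 0.21, 0 and 0 TPM alignment-based but at 16.2, 11.7 and 10.5 TPM read-based. Whether counting used the strand is not stated in those sources, so reads of the 2 genes may not be separable. Gm26110, a small nuclear RNA gene within Fcgr4, had 3, 0 and 2 counts, and Mir6546, a microRNA gene within Fcgr3, was listed at 0, as was Gm27552 next to Fcgr3. Between Fcgr2b and Fcgr4, the long non-coding gene Gm10522 had 4, 0 and 0 counts, and on the far side of Fcgr2b the pseudogene Gm37030 had none. Apoa2, a neighbour of Fcer1g, was at 1.7, 0.85 and 1.04 TPM, from 5, 3 and 4 counts. Around Fcgr1, the long non-coding gene Gm42743 had 1, 5 and 0 counts and the small nuclear RNA gene Gm24830 had 65, 9 and 21.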

How the data were processed

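Chromatin-fraction total RNA-seq gave 3 libraries of 1 group. Per the deposited README files, the gene tables and alignment-based transcript tables came from an alignment to the GENCODE M21 transcriptome (mm10), and the read-based tables from the reads and an index. The tools and any use of strand are not stated in the sources used here. Expected counts, not normalized, are as the authors deposited them. TPM and the isoform percent were deposited by the authors, with TPM scaled over all rows of a table, short RNAs included, and the read-based counts are the authors' estimates.

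Depth was 11958978 expected counts in replicate 1, 17283529 in replicate 2 and 19475027 in replicate 3. Rows without a gene name (1.31%, 0.48% and 0.24%) were left out of library sizes and tests. Counts were rounded and fitted with edgeR 4.0.16 in R 4.3.3 (filterByExpr, TMM, intercept only), testing each gene's quasi-dispersion against the trend with Benjamini-Hochberg adjustment at 0.05, after a check on simulated data. DESeq2 1.42.0 was the alternative. Ratios are of CPM with 0.1 added, and their 95% intervals cover counting error only. Python 3.11.15 with pandas 2.3.3, numpy 2.4.6 and scipy 1.17.1 did the rest, and matplotlib 3.10.9 drew the figures. No 2 libraries agreed within sampling noise (chi-square over degrees of freedom of 36.6 to 74.2).

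The members and lists were chosen with earlier results of these data known. Named are the members, the 3 highest genes and the lowest gene of each list (where several tie at 0, all), the 3 nearest genes of each member, annotated neighbours and isoforms of 10% or more. The coding Fcgr2b isoforms and the further list genes were added after their values were seen. A listed gene and a neighbouring gene that these rules would name are not reported here.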

Additional observations from a re-analysis of the deposited data

How the results depend on the processing

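No paired analysis was possible because the libraries form 1 group. In the read-based table the mean level was 98.3 TPM for Fcgr1, 15.0 TPM for Fcgr4 and 198 TPM for Fcer1g, and Fcgr2b minus Fcer1g was 0.21 in log2(TPM + 1). With TPM rescaled to the sum of nuclear genes that are protein-coding or long non-coding, the means were 596 TPM for Fcgr2b, 246 TPM for Fcer1g, 118 TPM for Fcgr1, 21 TPM for Fcgr4 and 20.3 TPM for Fcgr3. Fcgr4 minus Fcgr3 ranged from -0.21 to 0.44 with 1 replicate left out, and was -0.21 without replicate 1 and -0.18 without replicate 2. Genes more variable than the trend numbered 49 with no filter on low counts and 155 by DESeq2's outlier mark, and 0 to 73 with 1 replicate left out (8 without replicate 1, 0 without replicate 2, 73 without replicate 3). No member was called in any of these. The read-based share was 51.8% for Fcgr1-201, 36.2% for Fcgr2b-205 and 28.6% for Fcer1g-201. As a share of counts, Fcgr2b-205 held 62.7% and Fcer1g-201 74.2%. The retained-intron share was 59.1% read-based and 65.0% of counts for Fcgr2b, and 29.0% read-based and 8.3% of counts for Fcer1g. Of the 14 other Fc receptor genes, 3 reached 10 TPM read-based and 2 after renormalization. Of 60 alternative ratios between libraries, 2 changed sign. Fcer1g in replicate 2 over replicate 3 was -0.05 by library totals, within its counting interval, and Fcgr1 in replicate 1 over replicate 2 was -0.09 in deposited TPM, which shifts the median of all genes by -0.24 for that pair. The cause of these changes was not tested. The low counts of Fcgr3 and Fcgr4 limit their isoform shares and ratios.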
